A study of Homo sapiens with 12 samples.

Results

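The 36 genes described here encode the core machinery of autophagy, its cargo receptors and the main proteins of the lysosome. They were chosen by name, as the rows of the count table whose Ensembl identifier carries one of 36 listed symbols, and all 36 were found among the 28747 identifiers of the table. They were read in 12 RNA-seq libraries of DU145, an established human cell line from castration-resistant prostate cancer that lacks the androgen receptor. Control cells (shCtrl) and cells with a stable lentiviral knockdown hairpin (shSigma) were each grown as adherent cultures with serum and as tumor spheres, with 3 libraries in each of the 4 groups. Tumor spheres grow at low density without attachment in a serum-free medium with growth factors, so medium, serum, density and attachment change together between the cultures. All comparisons of shSigma with shCtrl rest on selected stable lines, and the sources used here do not state which hairpin the sequenced cells carried. The labels only number the replicates, while the study's methods describe them as biologically independent.

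In autophagy, a double membrane closes around cytoplasmic cargo and the resulting autophagosome fuses with a lysosome, where acid hydrolases degrade the content. The ULK1 kinase complex and a phosphatidylinositol 3-kinase complex start the membrane, ATG9 vesicles and ATG2 lipid transfer proteins feed it, and a ubiquitin-like conjugation system attaches LC3 and GABARAP proteins to it, which cargo receptors then bind. TFEB and TFE3 are transcription factors that switch on lysosomal genes. DU145 cells are known to lack full-length ATG5 protein and to be poor in LC3 lipidation. Transcript levels of these genes do not measure autophagic activity.

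The libraries held 16472722 to 26957777 counts. Of 5 epithelial markers, CDH1 and EPCAM had lower means in shSigma cells of both cultures, while the keratins KRT8, KRT18 and KRT19 had higher means in adherent shSigma cells. CDH1 had means of 26.8 CPM (a read count divided by the library's TMM-scaled size) in adherent shCtrl, 12 in adherent shSigma, 727 in tumor sphere shCtrl and 27.8 in tumor sphere shSigma libraries. EPCAM had means of 235, 30.9, 613 and 61.9 CPM in the same order. The means in that order were 234, 413, 384 and 333 CPM for KRT8, 321, 502, 391 and 289 CPM for KRT18, and 92.7, 359, 198 and 218 CPM for KRT19. The part of these 5 markers in the members' differences was not tested. Of 9 markers of stromal, blood, endothelial and liver cells, COL1A1 had group means up to 22.7 CPM and the other 8 stayed at group means of at most 1.55 CPM.

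The libraries also differed in their yield of GC-rich genes. Over the 20% of genes with the highest GC content (above 57.9%), the median log2 deviation from the mean of all libraries was -0.80, -0.43 and -0.05 in adherent shCtrl and 0.03, 0.13 and -0.50 in adherent shSigma replicates 1 to 3. In tumor spheres it was 0.27, 0.04 and 0.23 in shCtrl and 0.43, 0.35 and 0.27 in shSigma replicates 1 to 3. Adherent shCtrl replicates 1 and 2 and adherent shSigma replicate 3 thus stood apart, and the tumor sphere libraries lay above the adherent ones with the exception of adherent shSigma replicate 2. Of the members, ULK1, ATG101, ATG9A, ATG2A, ATG4B, TFEB, TFE3 and CTSD belong to this GC-rich class, and where a result of theirs is called or comes near it, the value from a fit with GC-content offsets, chosen after the data were seen, is given too.

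Most members were well measured. Per length of exon (RPKM, in adherent shCtrl cells) the highest mean levels were 31.8 for LAMP1, 26.6 for OPTN, 26.2 for NBR1 and 25.6 for CTSL, and the lowest above 0 was 0.211 for TFEB. GABARAP was low, with group means of 5.76 to 8.32 CPM. ATG16L1 had 0 counts in all 12 libraries, which allows up to 3 counts per library for counting error alone, and since the gene annotation behind the table is not given in the sources used here, nothing is read from it. The other 35 members passed the filter on low counts and were tested in every comparison. Exons of 13 members share bases with another gene of the table, in 12 cases only with genes on the opposite strand, and the use of strand in counting is not given. The handling of reads with several alignments is not given either, which touches MAP1LC3B and GABARAPL1, genes with near-identical copies in the genome.

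In adherent cells, 19 of the 35 tested members differed between shSigma and shCtrl at an adjusted p under 0.05, where 50% of all 13764 genes tested did. Of these, 10 were higher in shSigma cells (22.3% of all genes) and 9 were lower (27.7% of all genes). The median log2 fold change was 0.18 over the members and -0.01 over all genes. In tumor spheres, 17 of 35 members were called, against 61.1% of all 13774 genes tested. Here 11 were higher (30.2% of all genes) and 6 were lower (30.9%), with a median of 0.11 over the members and 0.00 over all genes. The share of members called was thus 54.3% in adherent cells and 48.6% in spheres, close to the background in the former and below it in the latter. RNA of whole cultures was measured, so fewer cells of a type and less RNA per cell cannot be told apart. When a log2 difference of more than 1 in either direction was also required, TFEB alone was called among the adherent cultures (13.7% of all genes were), and OPTN and CTSD in spheres (13.1% of all genes). The groups of libraries did not overlap for 22 members in adherent cells and 23 in tumor spheres (57.9% and 66.8% of all genes).

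The members called in both cultures numbered 12, which is 63.2% of those called in adherent cells and 70.6% of those called in tumor spheres. Over all genes these shares were 71.8% and 59.1%. All 12 had the same direction in both cultures. Of these, 7 were higher (ATG13, PIK3C3, WIPI1, WIPI2, NBR1, TFEB and CTSL) and 5 were lower (ULK2, ATG14, ATG2B, ATG7 and MAP1LC3B) in shSigma cells. Among all 13391 genes tested in both cultures, 36.1% were called in both, 1907 of them higher in both, 2369 lower in both and 552 in opposite directions.

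Within the ULK1 complex, the kinase subunits differed in direction in tumor spheres. ULK2, which encodes a kinase closely related to ULK1 (chr17:19770829-19867936, minus strand, GRCh38), had 87.9, 88.4 and 84.1 CPM in adherent shCtrl and 47.9, 49.3 and 56 CPM in adherent shSigma libraries. Its tumor sphere libraries held 62, 60.3 and 61.9 CPM in shCtrl and 29.7, 32.1 and 32 CPM in shSigma cells. The shSigma libraries were below all shCtrl libraries of the same culture. The log2 fold change was -0.83 ± 0.07 (standard error, n = 3 and 3) in adherent cells (adjusted p = 9.01e-05) and -0.98 ± 0.06 in tumor spheres (adjusted p = 1.60e-07), and no library left out ended either call.

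ULK1 encodes the principal kinase that starts autophagy. Adherent shCtrl libraries had 11, 13.4 and 22.8 CPM and adherent shSigma libraries 27.2, 31.1 and 13.1 CPM, tumor sphere shCtrl libraries 33.4, 22.3 and 27.1 CPM and tumor sphere shSigma libraries 53.2, 48.1 and 38.1 CPM. The adherent groups overlapped and did not pass the test (log2 fold change 0.56 ± 0.41, adjusted p = 0.31). The tumor sphere groups were separate, and ULK1 was higher in shSigma spheres by 0.75 ± 0.16 (adjusted p = 0.0026). With GC-content offsets this difference was 0.44 (adjusted p = 2.69e-04), and the part of GC content in the remainder was not tested. ATG13, the adaptor that joins the kinase to its partners, rose in both cultures, from 63.2, 66.2 and 69.6 to 84.9, 83.6 and 82.9 CPM in adherent cells and from 67.6, 62.2 and 65.9 to 90.8, 85 and 90.1 CPM in spheres. Its log2 fold changes were 0.28 ± 0.06 and 0.44 ± 0.06, and the libraries of the groups did not overlap. The adherent call was lost (adjusted p = 0.094) once the median of the 40 nearest tested genes was subtracted. RB1CC1, the scaffold of the complex, and ATG101, which stabilises ATG13, did not pass the test in either culture, with log2 fold changes between -0.08 and 0.13. With GC-content offsets RB1CC1 was called at 0.14 in adherent cells and 0.20 in spheres (adjusted p = 0.049 and 0.0031). ATG101 was then called lower in spheres, at -0.23 (adjusted p = 0.016).

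Of the phosphatidylinositol 3-kinase complex, the catalytic subunit and the autophagy-specific subunit moved in opposite directions. PIK3C3, the lipid kinase itself, rose from 55, 54.4 and 48.4 to 69.2, 67.6 and 82.2 CPM in adherent cells and from 43, 42.2 and 43.4 to 51.2, 51.3 and 51.1 CPM in tumor spheres. The groups were separate, with log2 fold changes of 0.41 ± 0.09 and 0.25 ± 0.06 (adjusted p = 0.0082 and 0.0033). ATG14, the subunit that directs the complex to autophagy (chr14:55366391-55411830, minus strand), fell from 61, 66.2 and 63.9 to 52.9, 50.4 and 55.6 CPM in adherent cells and from 58.7, 64.2 and 61.9 to 51.2, 50.9 and 48.9 CPM in spheres. Its groups were also separate, with log2 fold changes of -0.33 ± 0.07 and -0.30 ± 0.06. The 40 tested genes nearest to ATG14 had a median log2 fold change of -0.38 in adherent cells and -0.49 in spheres, so ATG14 lay 0.05 and 0.20 above its neighbourhood. The overlapping gene FBXO34 had log2 fold changes of -0.33 and -0.42. The adherent ATG14 call was also lost without either shSigma replicate 1, shSigma replicate 2 or shCtrl replicate 2 (adjusted p 0.081 to 0.098). BECN1, the regulatory subunit, and UVRAG, the subunit of the endosomal form, did not pass the test in either culture (log2 fold changes 0.01 to 0.18). With GC-content offsets both were called in adherent cells, at 0.28 and 0.22 (adjusted p = 0.0027 and 0.0073), and neither in spheres.

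Among the proteins that supply lipid to the growing membrane, the paralogues ATG2A and ATG2B had opposite signs. ATG2B (chr14:96279195-96363341, minus strand) fell from 95.2, 102 and 96.8 to 58.9, 59.9 and 68.3 CPM in adherent cells and from 59.6, 53.4 and 54 to 39.1, 44.8 and 43.8 CPM in tumor spheres. No shSigma library reached the lowest shCtrl library of its culture, and the log2 fold changes were -0.72 ± 0.07 (adjusted p = 1.31e-04) and -0.39 ± 0.08 (adjusted p = 8.07e-04). In spheres the 40 nearest genes had a median of -0.43, against which ATG2B stood at 0.04, while in adherent cells it stood at -0.49 against their median. ATG2A (63.9% GC) had 10.1, 17.3 and 27 CPM in adherent shCtrl and 39.8, 43.4 and 23 CPM in adherent shSigma libraries, and 34.1, 23 and 30.3 and 54.4, 49.5 and 46.3 CPM in the spheres. Its adherent groups overlapped and missed the threshold (log2 fold change 0.92 ± 0.41, adjusted p = 0.11), whereas the sphere groups were separate and ATG2A was higher in shSigma spheres by 0.78 ± 0.13 (adjusted p = 6.51e-04). With GC-content offsets both cultures were called, at 0.61 and 0.49.

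WIPI1 and WIPI2, which read the phosphatidylinositol 3-phosphate mark and recruit the conjugation system, rose by 0.42 ± 0.13 and 0.30 ± 0.09 in adherent cells and by 0.47 ± 0.09 and 0.23 ± 0.05 in spheres. Their groups of libraries did not overlap in either culture. WIPI1 had 19.5, 18 and 15.4 CPM in adherent shCtrl and 22, 24.1 and 28.3 CPM in adherent shSigma libraries, and its adherent call was lost without shSigma replicate 3 or shCtrl replicate 3 (adjusted p 0.06 to 0.068). It shares exon bases with ARSG on the opposite strand, which had 7.45 and 5.14 CPM in adherent shCtrl and shSigma cells, a log2 fold change of -0.60. In spheres ARSG had 0.16 and was not called (adjusted p = 0.31). For WIPI2 the 40 nearest genes had medians of 0.17 and 0.20, and after their subtraction neither culture was called (adjusted p = 0.24 and 0.6). ATG9A, the scramblase of the vesicles that seed the membrane, did not pass the test (log2 fold changes 0.18 and 0.15).

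The conjugation machinery joins LC3 and GABARAP proteins to the membrane lipid, with ATG7 as the activating enzyme, ATG3 and ATG10 as transfer enzymes, the ATG12 and ATG5 conjugate as the ligase core and ATG4B as the processing protease. Of its 6 tested members, 4 were called in the adherent comparison (50% of all genes) and 2 in that of the spheres (61.1% of all genes). ATG7 (chr3:11272309-11557665, plus strand) fell from 46.2, 44.4 and 46.7 to 28.8, 31.5 and 32.9 CPM in adherent cells, which is -0.62 ± 0.07 on the log2 scale (adjusted p = 3.67e-04). In spheres it went from 29, 32.4 and 33 to 28.3, 26.7 and 27.9 CPM, -0.19 ± 0.08 (adjusted p = 0.043), a call that was lost in 5 of the 6 fits without a library (all but shCtrl replicate 1, adjusted p 0.076 to 0.17). The groups were separate in both cultures, closely so in spheres. Its neighbourhood was lower as well, with medians of -0.63 and -0.51 over the 40 nearest genes, so that ATG7 was level with its neighbours in adherent cells (0.01) and above them in spheres (0.31). VGLL4, which shares exon bases with ATG7 on the opposite strand, had log2 fold changes of -0.05 in adherent cells and -0.37 in spheres.

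ATG10 and ATG3 were lower in adherent shSigma cells, with -0.38 ± 0.10 and -0.29 ± 0.09, and their sphere values were 0.06 and 0.03. The ATG10 call was lost (adjusted p = 0.44) once the median of its 40 nearest genes was subtracted, and both calls depended on single libraries. Each was lost without any of shSigma replicates 1 and 2 or shCtrl replicates 1 and 2, with adjusted p 0.088 to 0.13 for ATG10 and 0.093 to 0.21 for ATG3. RPS23, which shares exon bases with ATG10 on the opposite strand, had 730 and 595 CPM in adherent shCtrl and shSigma cells. Its log2 fold changes were -0.36 in adherent cells (adjusted p = 0.064) and -0.40 in spheres (adjusted p = 0.0043). ATG12 rose in adherent cells, from 72.4, 67.5 and 62.8 to 85.7, 82.7 and 91.8 CPM (0.29 ± 0.08, adjusted p = 0.018), and had 0.14 in spheres (adjusted p = 0.069). With GC-content offsets ATG12 was also called in spheres, at 0.24 (adjusted p = 0.0025). ATG4B fell in spheres, from 71.3, 62.2 and 67.5 to 53.9, 56.2 and 53.6 CPM (-0.30 ± 0.07, adjusted p = 0.0024, and -0.48 with GC-content offsets). ATG5 had 26.5, 24.4 and 24.3 CPM in adherent shCtrl and 24.2, 23 and 29 CPM in adherent shSigma libraries, with log2 fold changes of -0.05 and 0.10 that did not pass the test. Counts per gene do not separate its splice forms.

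Of the LC3 and GABARAP proteins, MAP1LC3B fell in both cultures. MAP1LC3B, the LC3 protein most used as an autophagosome marker (chr16:87383953-87404779, plus strand), had 104, 96 and 92.8 CPM in adherent shCtrl and 70.6, 70.4 and 81.4 CPM in adherent shSigma libraries. The spheres had 109.7, 121 and 114 CPM in shCtrl and 78, 73 and 77.3 CPM in shSigma libraries. The groups were separate, and the log2 fold changes were -0.46 ± 0.08 (adjusted p = 0.0021) and -0.60 ± 0.06 (adjusted p = 2.96e-06). Genes around it were lower too, with medians of -0.26 and -0.48, and after subtraction MAP1LC3B was at -0.20 and -0.11, called in neither culture. FBXO31, which shares exon bases with it, had log2 fold changes of -0.13 and -0.49. GABARAPL2, a GABARAP protein also studied in Golgi traffic, rose in adherent cells by 0.27 ± 0.08 and had -0.07 in spheres. This adherent call was lost without shSigma replicate 3, shCtrl replicate 2 or shCtrl replicate 3 (adjusted p 0.053 to 0.067). GABARAP (0.34 and 0.11) and GABARAPL1 (-0.07 and -0.03) did not pass the test in either culture. With GC-content offsets GABARAP was called in adherent cells, at 0.39 (adjusted p = 0.02).

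OPTN carried the largest difference among the cargo receptors, and it was seen in spheres. Optineurin links ubiquitinated cargo such as damaged mitochondria to LC3 (chr10:13099449-13138308, plus strand). Tumor sphere shCtrl libraries had 66.5, 65.8 and 72.3 CPM and tumor sphere shSigma libraries 152, 149 and 157 CPM, while adherent libraries had 152, 128 and 130.3 CPM in shCtrl and 161, 154 and 183 CPM in shSigma cells. The shCtrl spheres were thus the low group, and each of the other 9 libraries held at least 128 CPM. The log2 fold change was 1.16 ± 0.06 in spheres (2.23-fold, adjusted p = 1.40e-08), and it ran from 1.13 to 1.21 with each library left out in turn. In adherent cells it was 0.21 ± 0.09 and missed the threshold (adjusted p = 0.093), although the groups did not overlap. With GC-content offsets OPTN was called in both cultures, at 0.31 in adherent cells (adjusted p = 7.45e-04) and 1.18 in spheres. Genes near OPTN were also lower in shCtrl spheres than in adherent shCtrl cells, as given below. The overlapping gene CCDC3 had at most a mean of 5.95 CPM in any group.

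NBR1, a receptor for ubiquitinated aggregates and peroxisomes, rose from 231, 217 and 213 to 308, 307 and 357 CPM in adherent cells and from 190.4, 191 and 191 to 250.4, 242 and 260.3 CPM in spheres. The groups were far apart relative to their spread, with log2 fold changes of 0.49 ± 0.07 and 0.39 ± 0.05 (adjusted p = 0.0011 and 2.72e-05), and both calls held with each library left out in turn. SQSTM1, which encodes the receptor p62, varied among adherent replicates, with 45.4, 71.4 and 85.4 CPM in shCtrl and 70.1, 67.2 and 38.5 CPM in shSigma libraries, and the groups overlapped (log2 fold change -0.25 ± 0.32). In spheres it had 0.12 and did not pass the test. PINK1, the kinase that marks damaged mitochondria, had 0.30 and -0.02 and was not called. With GC-content offsets PINK1 was called in adherent cells, at 0.29 (adjusted p = 0.046). Its antisense partner PINK1-AS, on the opposite strand, had 15.3 CPM in adherent shCtrl and 8.10 CPM in adherent shSigma libraries, a log2 fold change of -0.97 (adjusted p = 7.18e-04). In spheres PINK1-AS had 0.17 and was not called (adjusted p = 0.16).

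TFEB and TFE3 differed in level, with means of 0.211 and 17.2 RPKM in adherent shCtrl cells. TFE3 had 67, 72.9 and 77.8 CPM in adherent shCtrl cells and did not pass the test in either culture (log2 fold changes 0.02 and 0.16). TFEB was low, with 0.922, 1.61 and 1.74 CPM in adherent shCtrl, 4.52, 4.25 and 1.88 CPM in adherent shSigma, 4.45, 2.98 and 3.63 CPM in sphere shCtrl and 7.76, 5.67 and 7.05 CPM in sphere shSigma libraries. Every shSigma library exceeded the shCtrl libraries of its culture, though adherent shSigma replicate 3 did so by little. The log2 fold change was 1.27 ± 0.41 in adherent cells (adjusted p = 0.038) and 0.89 ± 0.17 in spheres (adjusted p = 8.06e-04). The adherent call was lost without any of the adherent libraries except shSigma replicate 3 (adjusted p 0.069 to 0.089). TFEB is GC-rich (61.4%), and with GC-content offsets it was called in both cultures, at 0.99 (adjusted p = 0.0031) and 0.68 (adjusted p = 0.001).

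Both factors bind an E-box within a longer element of lysosomal gene promoters, so the members' promoters were searched for CACGTG and for TCACGTG, which contains it, on both strands. RefSeq promoters of the build GRCh38.p14 (250 bases before to 50 bases after the start) were matched for 31 of the 36 members, with 39 promoters. CACGTG was found in 4 of the 39, or 10.3%, against 7.26% of all 35116 promoters of the same length. TCACGTG was found in the same number of member promoters, against 3.71% of all promoters. The 4 genes were LAMP1, CTSD, ATG14 and ATG3. LAMP1 and CTSD were called between the cultures for both hairpins, and ATG14 and ATG3 for neither. SQSTM1 and GABARAPL1, whose promoters held no match, were also called for both. The part of the motif in these differences was not tested. Upstream stretches of the promoters with a match are shown because they carry the motif. They read 5′ to 3′ on the strand of the gene, with the E-boxes in capitals and, for CTSD and ATG3, 30 bases around an E-box.
LAMP1, chr13:113296989-113297238, plus strand: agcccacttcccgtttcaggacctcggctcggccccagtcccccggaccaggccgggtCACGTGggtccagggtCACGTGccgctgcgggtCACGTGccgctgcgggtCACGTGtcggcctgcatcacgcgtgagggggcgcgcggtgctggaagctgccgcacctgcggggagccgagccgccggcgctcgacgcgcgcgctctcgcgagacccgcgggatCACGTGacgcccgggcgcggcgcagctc
CTSD, chr11:1763957-1763986, minus strand: gccggccgcgccCACGTGaccggtccgggt
ATG14, chr14:55411831-55411930, minus strand: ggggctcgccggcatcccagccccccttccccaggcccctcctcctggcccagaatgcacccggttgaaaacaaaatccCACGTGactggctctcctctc
ATG3, chr3:112561963-112561992, minus strand: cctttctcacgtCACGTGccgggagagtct
The LAMP1 stretch holds 5 E-boxes, and the other printed stretches hold 1 each. These are matches of letters and not measured binding sites.

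At the lysosome itself, LAMP1 and LAMP2 fell in adherent cells while CTSB and CTSL rose. LAMP1, a major glycoprotein of the lysosomal membrane, had 164, 174 and 209.9 CPM in adherent shCtrl and 145, 149.8 and 120.4 CPM in adherent shSigma libraries, a log2 fold change of -0.46 ± 0.13 (adjusted p = 0.02). This call was lost without shSigma replicate 1 or shCtrl replicate 3 (adjusted p 0.051 to 0.071). In spheres it had 279, 247 and 274 CPM in shCtrl and 288, 290.2 and 285 CPM in shSigma libraries and did not pass the test (0.11 ± 0.06). LAMP2, its partner in fusion and chaperone-mediated autophagy, fell in adherent cells, with -0.26 ± 0.08, a call lost without shSigma replicate 1 or 2 or shCtrl replicate 1 or 2 (adjusted p 0.16 to 0.23) and, at -0.07, with GC-content offsets. In spheres LAMP2 stood at 0.08 and, with GC-content offsets, was called at 0.18 (adjusted p = 0.0056).

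Cathepsins are the proteases of the lysosome. CTSL, a cysteine protease (chr9:87724051-87731469, plus strand), rose from 176, 151 and 142 to 229, 218 and 256 CPM in adherent cells and from 134, 147 and 132 to 220.0, 193 and 204 CPM in spheres. The groups were separate, with log2 fold changes of 0.52 ± 0.10 (adjusted p = 0.0041) and 0.57 ± 0.06 (adjusted p = 8.26e-06). CTSB, another cysteine protease, had 71.5, 77.4 and 80.9 CPM in adherent shCtrl and 119, 123 and 116 CPM in adherent shSigma libraries, a log2 fold change of 0.58 ± 0.07 (adjusted p = 4.10e-04). In spheres it had 155, 155 and 166 CPM in shCtrl and 174, 163 and 167 CPM in shSigma libraries, and the groups overlapped (0.08 ± 0.05, adjusted p = 0.2).

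CTSD, the aspartic protease of the lysosome (chr11:1752752-1764573, minus strand), had the largest log2 fold change of the members in tumor spheres. Tumor sphere libraries held 51.5, 42.1 and 49.7 CPM in shCtrl and 185, 138 and 118 CPM in shSigma cells, and adherent libraries 11.6, 19.6 and 28.5 CPM in shCtrl and 53.9, 57.8 and 24.4 CPM in shSigma cells. The sphere groups were separate, while in adherent cells shSigma replicate 3 fell below shCtrl replicate 3. CTSD was higher in shSigma spheres by 1.62 ± 0.15 on the log2 scale (3.07-fold, adjusted p = 1.49e-05), and the adherent value of 1.15 ± 0.45 missed the threshold (adjusted p = 0.077). Without adherent shSigma replicate 3 the adherent difference was 1.46 (adjusted p = 0.017). CTSD has 64% GC, and with GC-content offsets both cultures were called, at 0.80 in adherent cells and 1.31 in spheres. The 40 genes nearest to it had medians of 0.58 and 0.37.

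**Figure D1:**
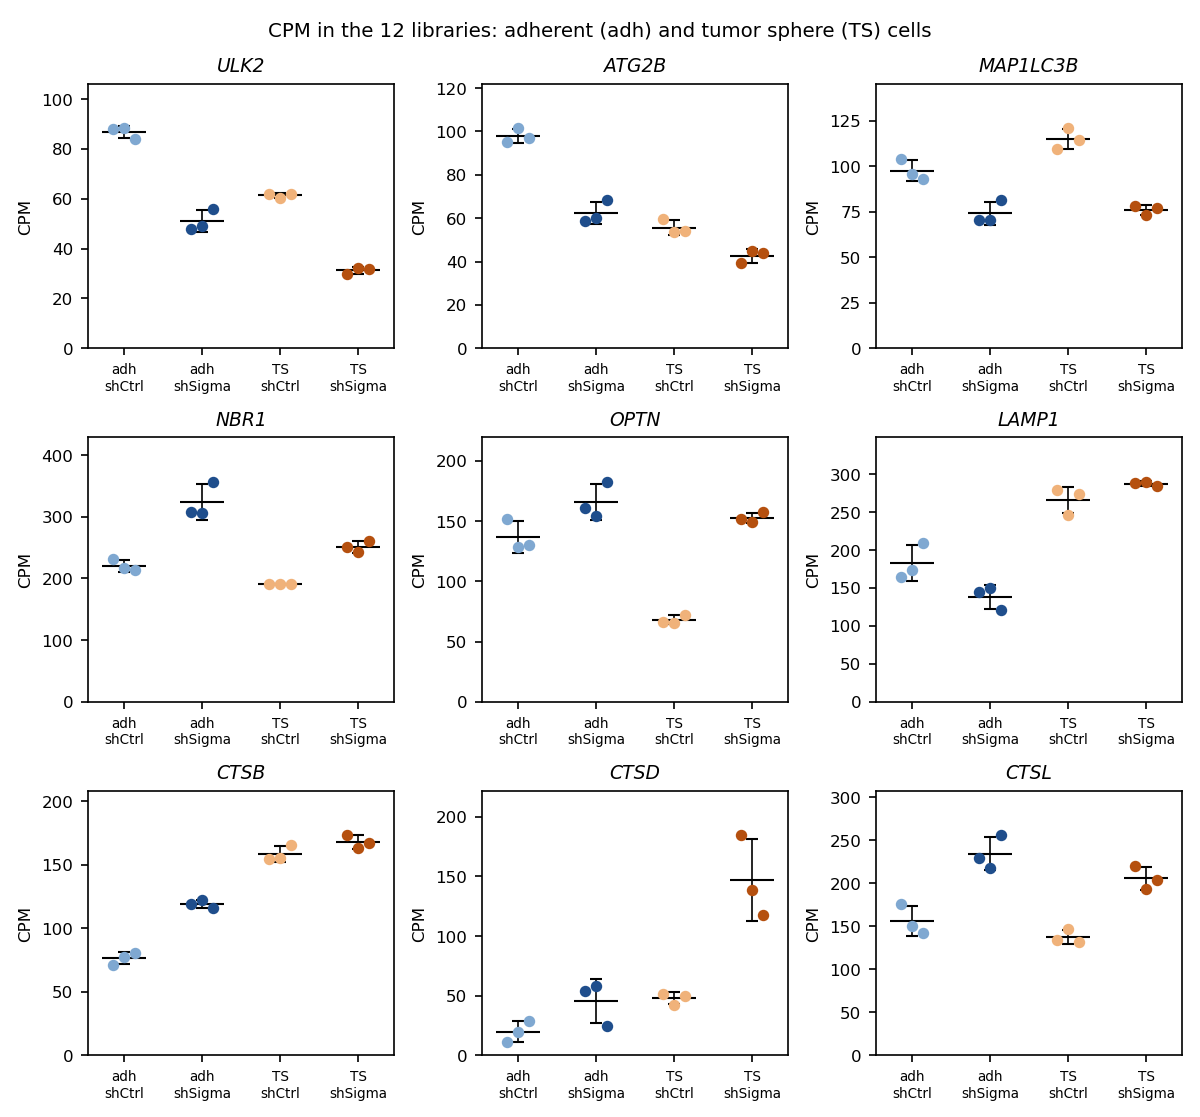
CPM of 9 members in each of the 12 libraries (points), with the mean (line) and SD (bar) of the 3 libraries of each group; adh is adherent and TS is tumor spheres. OPTN was low only in the shCtrl spheres, with at most 72.3 CPM, and CTSD reached 118 to 185 CPM in the shSigma spheres.

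The lowest of the 12 libraries for ULK1, ATG2A, CTSD and TFEB was the same, adherent shCtrl replicate 1, which also had the lowest yield of GC-rich genes. The plot of these 4 members against that yield shows the highest CPM of each in the 3 shSigma sphere libraries, where that yield was highest. Within both adherent groups the libraries of ULK1, ATG2A and CTSD had the order of their GC yield.

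Tumor spheres were next set against adherent cells of the same hairpin. In shCtrl cells 22 of 35 members were called, against 53.7% of all 13800 genes tested, with 13 higher in spheres (27.4% of all genes) and 9 lower (26.3%). In shSigma cells 16 were called, against 47.1% of all 13622 genes, with 8 higher (21.9%) and 8 lower (25.2%). The medians were 0.03 and -0.02 over the members and 0.04 and 0.00 over all genes. These comparisons share no library with each other, but each shares its groups with a knockdown comparison above. An absolute log2 fold change over 1 was reached by 4 called members in shCtrl cells (15.8% of all genes) and 3 in shSigma cells (9.32% of all genes). The groups of libraries did not overlap for 23 members in shCtrl cells and 23 in shSigma cells (62.7% and 60.8% of all genes). The CPM of these members are those given above.

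**Figure D2:**
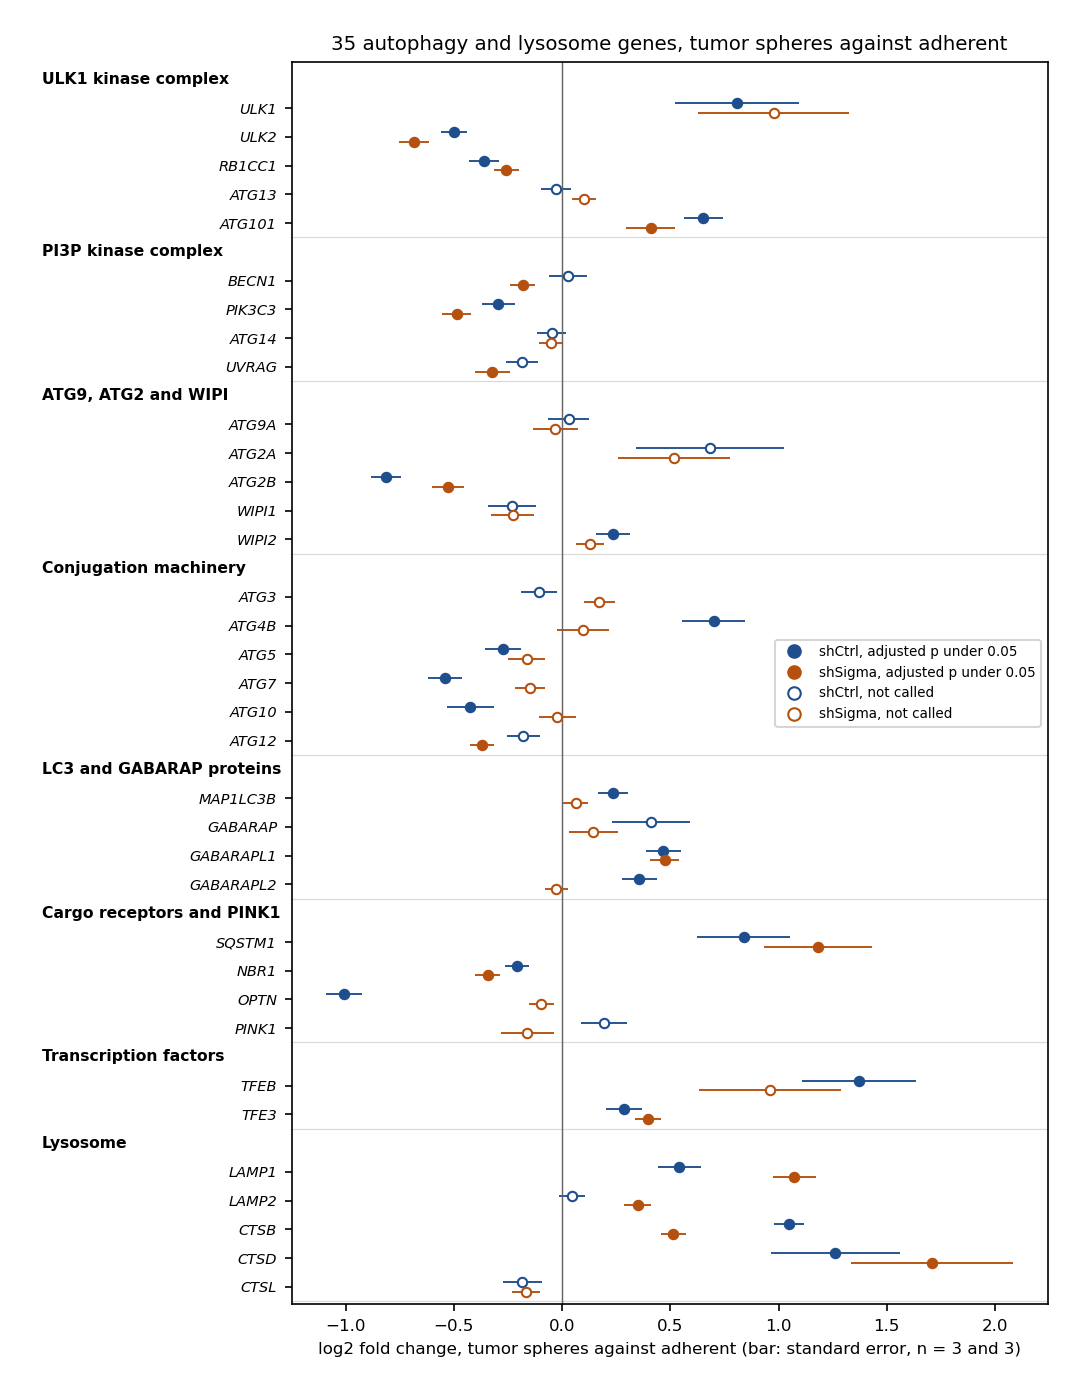
Log2 fold change of tumor spheres against adherent cells for the 35 tested members, by role, in shCtrl (blue) and shSigma (orange) cells. Bars are standard errors from 3 against 3 libraries and filled points passed an adjusted p of 0.05, as 22 members did in shCtrl and 16 in shSigma cells.

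Of the lysosomal members, CTSD, CTSB and LAMP1 were higher in spheres for both hairpins. CTSD was higher by 1.26 ± 0.30 in shCtrl cells (adjusted p = 0.011) and by 1.71 ± 0.37 in shSigma cells (adjusted p = 0.014), and with GC-content offsets by 0.56 and 1.10. Without sphere shCtrl replicate 1 the first of these calls was lost at 1.18 (adjusted p = 0.053). CTSB was higher by 1.05 ± 0.07 and 0.51 ± 0.06, and LAMP1 by 0.54 ± 0.10 and 1.07 ± 0.10. LAMP2 was higher by 0.35 ± 0.06 in shSigma cells and stood at 0.05 in shCtrl cells, where it was not called. With GC-content offsets LAMP2 was called in shCtrl cells too, at 0.23 (adjusted p = 0.0018). CTSL was called in neither (-0.18 and -0.16). The groups of LAMP1 and CTSB libraries did not overlap between the cultures for either hairpin.

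TFEB was higher in shCtrl spheres by 1.37 ± 0.26 (adjusted p = 0.0031), and in shSigma spheres by 0.96 ± 0.33 without passing the threshold (adjusted p = 0.053). With GC-content offsets the values were 0.81 and 0.53 (adjusted p = 0.0026 and 0.026). TFE3 was higher by 0.29 ± 0.08 and 0.39 ± 0.06, and neither of these calls held with GC-content offsets (-0.15 and 0.08). The shCtrl call of TFE3 was also lost without adherent replicate 1 or 2 or sphere replicate 1 or 3 (adjusted p 0.07 to 0.11).

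Among receptors and LC3 proteins, SQSTM1 rose in spheres by 0.84 ± 0.21 in shCtrl (adjusted p = 0.015) and 1.18 ± 0.25 in shSigma cells (adjusted p = 0.012). The 6 sphere libraries of SQSTM1 ranged from 111 to 141 CPM and the 6 adherent ones from 38.5 to 85.4 CPM. In shCtrl cells this call was lost without sphere replicate 1 or 3 (adjusted p 0.056 to 0.064). GABARAPL1 rose by 0.47 ± 0.08 and 0.47 ± 0.07, with separate groups for both hairpins. OPTN was lower in shCtrl spheres, at -1.01 ± 0.08 (adjusted p = 4.19e-05), and in shSigma spheres it stood at -0.10 ± 0.06 and was not called. Genes near OPTN had a median of -0.65 in the shCtrl comparison, and OPTN remained called after its subtraction, at -0.36. NBR1 was lower, at -0.21 and -0.34, with the shCtrl call lost without sphere replicate 1 or 3 (adjusted p 0.056 to 0.058) and, at -0.07, with GC-content offsets. MAP1LC3B was higher by 0.24 and GABARAPL2 by 0.36 in shCtrl spheres, and in shSigma spheres they had 0.06 and -0.03 without a call. The MAP1LC3B call was lost without each library except adherent shCtrl replicate 1 (adjusted p 0.069 to 0.13), and the GABARAPL2 call without sphere shCtrl replicate 3 (adjusted p = 0.06).

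The initiation and elongation members were mostly level or lower in spheres. ATG2B was lower, with -0.81 ± 0.07 in shCtrl and -0.53 ± 0.07 in shSigma cells, and so were ULK2 with -0.50 ± 0.06 and -0.68 ± 0.07, RB1CC1 with -0.36 ± 0.07 and -0.26 ± 0.06, and PIK3C3 with -0.30 ± 0.08 and -0.49 ± 0.07. Of these 8 calls, the one of PIK3C3 in shCtrl cells was lost without adherent shCtrl replicate 2 (adjusted p = 0.059) and with GC-content offsets (-0.12). In shCtrl cells alone ATG7 (-0.54 ± 0.08), ATG10 (-0.42 ± 0.11) and ATG5 (-0.27 ± 0.08) passed the test as lower. The ATG5 call was lost without adherent shCtrl replicate 2 or any sphere library (adjusted p 0.055 to 0.075) and with GC-content offsets (-0.10). In shSigma cells alone ATG12 (-0.37 ± 0.05), UVRAG (-0.32 ± 0.08) and BECN1 (-0.18 ± 0.06) did. The BECN1 call was lost without adherent shSigma replicate 1 or any sphere library (adjusted p 0.052 to 0.11) and with GC-content offsets (-0.08), and the UVRAG call without sphere shSigma replicate 1 (adjusted p = 0.052).

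Higher in spheres were the GC-rich ULK1 (0.81 ± 0.29 in shCtrl cells, adjusted p = 0.0497, groups overlapping), ATG101 (0.65 ± 0.09 and 0.41 ± 0.11) and ATG4B (0.70 ± 0.15 in shCtrl cells). With GC-content offsets ULK1 was at 0.06 in shCtrl cells and ATG101 at 0.19 and 0.08, none of them called, and ATG4B at 0.17 in shCtrl cells. In shSigma cells ULK1 stood at 0.98 without a call, and with GC-content offsets it was called at 0.35 (adjusted p = 0.015). The ULK1 call in shCtrl cells was also lost without each library except adherent shCtrl replicate 3 (adjusted p 0.061 to 0.16), and the ATG101 call in shSigma cells without sphere shSigma replicate 1 or 2 (adjusted p 0.07 to 0.081). WIPI2 was higher by 0.23 ± 0.08 in shCtrl spheres, a call that was lost without 5 of the 6 libraries (all but adherent shCtrl replicate 3, adjusted p 0.057 to 0.18) and, at 0.11, with GC-content offsets. ATG13, ATG14, ATG9A, ATG2A, WIPI1, ATG3, GABARAP and PINK1 passed the test for neither hairpin. With GC-content offsets ATG9A was lower in spheres for both (-0.44, adjusted p = 8.20e-04, and -0.37, adjusted p = 3.60e-04), GABARAP was higher in shCtrl spheres (0.47, adjusted p = 0.022) and ATG3 in shSigma spheres (0.29, adjusted p = 0.0035).

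Whether the shSigma difference itself changed with culture was tested by an interaction term, the log2 fold change in spheres minus that in adherent cells in 1 fit of all 12 libraries, so it can differ slightly from the difference of the separate fits. It was called for 7 of 35 members, against 28.4% of all 14175 genes tested, with 4 above 0 (12.7% of all genes) and 3 below (15.6%). None of the 7 exceeded 1 in size, where 8.54% of all genes did. The median was -0.03 over the members and -0.03 over all genes. OPTN (0.88 ± 0.11, adjusted p = 7.16e-05), LAMP1 (0.51 ± 0.14, adjusted p = 0.013) and CTSB (-0.56 ± 0.09, adjusted p = 3.28e-04) were also called with each library left out in turn. OPTN thus differed more in spheres, LAMP1 was lower in shSigma cells in adherent culture, and CTSB rose with the hairpin in adherent culture. The calls of ATG4B (-0.62 ± 0.19), ATG7 (0.37 ± 0.11), GABARAPL2 (-0.41 ± 0.10) and LAMP2 (0.28 ± 0.10) were each lost without at least 1 library. For ATG4B these were adherent shSigma replicates 1 and 2, adherent shCtrl replicates 1 and 2 and sphere shCtrl replicate 1 (adjusted p 0.0504 to 0.1), and for ATG7 adherent shSigma replicate 1 (adjusted p = 0.054). For GABARAPL2 they were adherent shCtrl replicate 2 and replicates 2 and 3 of both sphere groups (adjusted p 0.055 to 0.062). For LAMP2 they were adherent shSigma replicates 1 and 2, adherent shCtrl replicate 2, sphere shSigma replicates 2 and 3 and sphere shCtrl replicates 1 and 3 (adjusted p 0.08 to 0.13). The differences of ULK2, NBR1, CTSL and CTSD had interactions of -0.21 ± 0.10, -0.16 ± 0.09, -0.01 ± 0.13 and 0.43 ± 0.53 and were not called. With GC-content offsets ULK2 (-0.19, adjusted p = 0.042), NBR1 (-0.17, adjusted p = 0.023) and CTSD (0.51, adjusted p = 0.039) were called.

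Further genes of the pathway were described as lists, of which 163 of 164 genes were found in the table (TMEM55B was not). They were chosen with earlier results of these data known, so their directions are descriptions. The V-ATPase, the proton pump that acidifies the lysosome, had 12 higher and 1 lower of 18 tested subunits in shCtrl spheres and 11 higher and 1 lower of 19 in shSigma spheres, with median log2 fold changes of 0.36 and 0.30. Of 40 lysosomal hydrolases and activators, 22 were higher and 5 lower in shCtrl spheres and 29 higher and 5 lower in shSigma spheres, with medians of 0.39 and 0.45. Of 25 lysosomal membrane and transport proteins, 11 and 17 were higher and 2 and 1 lower. Over all genes 27.4% were higher and 26.3% lower in shCtrl spheres, and 21.9% and 25.2% in shSigma spheres. The medians over all genes were 0.04 and 0.00. With GC-content offsets the higher counts were 12 and 13 subunits, 22 and 29 hydrolases and 16 and 20 membrane proteins, where 30.4% and 27.9% of all genes were called higher.

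Between shSigma and shCtrl cells the V-ATPase had the other direction, with 2 subunits higher and 8 lower of 19 in adherent cells and 2 higher and 11 lower in tumor spheres. Over all genes 22.3% were higher and 27.7% lower in adherent cells and 30.2% and 30.9% in spheres, against which the counts of each list are to be read. The V-ATPase medians were -0.16 and -0.14. The hydrolases were divided, with 14 higher and 15 lower of 40 in adherent cells and 16 higher and 14 lower in spheres, and so were the membrane proteins, with 4 higher and 8 lower of 25 and 7 higher and 10 lower. Genes of mTORC1, the Rag-Ragulator complex and FLCN, which sense nutrients at the lysosome, had 3 higher and 3 lower of 23 in adherent cells and 9 higher and 6 lower in spheres. Other autophagy genes had 6 higher and 4 lower of 28 and 12 higher and 4 lower of 27, and other selective receptors 5 higher and 5 lower of 18 and 10 higher and 3 lower of 18.

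Among called genes averaging at least 5 CPM in the higher group, the largest changes of each list give the scale. Levels are means ± SD of 3 libraries. Without these limits, V-ATPase log2 fold changes ran from -0.80 to 1.80 in adherent cells and from -1.30 to 2.45 in spheres. Those of the hydrolases ran from -1.72 to 2.56 in adherent cells and from -1.02 to 1.51 in spheres. ATP6V1H, a subunit of the cytosolic sector of the pump, fell from 72.3 ± 3.38 to 43.3 ± 3.17 CPM in adherent cells and from 90.2 ± 2.47 to 52.4 ± 2.58 CPM in spheres, with log2 fold changes of -0.80 ± 0.08 and -0.79 ± 0.06. ARSB, the hydrolase arylsulfatase B, fell from 33.7 ± 3.59 to 10.7 ± 0.935 CPM and from 31 ± 0.721 to 15.3 ± 0.254 CPM (-1.72 ± 0.11 and -1.02 ± 0.08). LAMP3, a lysosomal membrane glycoprotein, went from 18.7 ± 0.367 to 9.04 ± 1.38 CPM and from 16.1 ± 1.66 to 7.96 ± 1.35 CPM (-1.11 ± 0.11 and -1.02 ± 0.13). LAMTOR5, a Ragulator subunit, went from 84.9 ± 11.4 to 54.2 ± 5.75 CPM and from 93.5 ± 11.7 to 49.5 ± 2.76 CPM (-0.72 ± 0.12 and -0.92 ± 0.08). These 4 genes were called as lower in both cultures, with separate groups of libraries. The 40 nearest genes had medians of -0.45 and -0.34 around ATP6V1H and -0.28 and -0.09 around ARSB. Around LAMP3 the medians were -0.003 and -0.20, and around LAMTOR5 -0.41 and -0.52.

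Further genes of adherent cells that fell were ATP6V1E2, a pump subunit (-0.67 ± 0.08), CTSV, a cathepsin close to CTSL (-1.24 ± 0.11), SORT1, the sorting receptor sortilin (-1.03 ± 0.07), EPG5, a tether for fusion with lysosomes (-0.96 ± 0.06), and RUBCN, a brake on autophagosome maturation (-0.68 ± 0.08). RRAGD, a Rag GTPase (0.85 ± 0.10), CALCOCO1, a receptor for the endoplasmic reticulum (1.13 ± 0.06), and BNIP3, a mitochondrial receptor (0.83 ± 0.08), rose. CALCOCO1 went from 55.9 ± 1.99 to 128 ± 4.20 CPM. In spheres ATP6V1D, a pump subunit (-0.59 ± 0.06), NPRL2, which restrains mTORC1 (-0.73 ± 0.07), and TEX264, a receptor for the endoplasmic reticulum (-0.74 ± 0.07), fell. MAP1LC3A, an LC3 protein (1.67 ± 0.19), TECPR1, a tether of autophagosomes (1.11 ± 0.10), SGSH, a heparan sulfate hydrolase (0.89 ± 0.08), CLCN7, the chloride carrier of the lysosome (0.72 ± 0.15), and TOLLIP, a ubiquitin-binding adaptor (0.53 ± 0.11), rose. MAP1LC3A went from 2.28 ± 0.240 to 7.26 ± 1.49 CPM. All of these had an adjusted p under 0.05, and their groups of libraries were separate. Medians of the 40 nearest genes in adherent cells were 0.01 for ATP6V1E2, 0.04 for CTSV, -0.47 for SORT1 and 0.08 for EPG5. They were -0.03 for RUBCN, -0.17 for RRAGD, 0.10 for CALCOCO1 and 0.49 for BNIP3. In spheres they were -0.35 for ATP6V1D, -0.25 for NPRL2, -0.42 for TEX264 and 0.13 for MAP1LC3A. For TECPR1, SGSH, CLCN7 and TOLLIP the sphere medians were 0.57, 0.36, 0.44 and 0.33.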

How the data were processed

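Directional single-end libraries were made from total RNA of DU145 cells and, per the labels, aligned by the authors with STAR 2.6.1c to GRCh38.p12. The deposited table holds whole-number counts per Ensembl gene for 12 libraries. Which annotation was counted, whether strand was used and how multiply aligned reads were treated are not given in the sources used here. Symbols were matched through GENCODE annotation.

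Each comparison was fitted to the counts of its own groups with edgeR 4.0.16 in R 4.3.3 (filterByExpr with a minimum count of 10, TMM factors, robust quasi-likelihood test, Benjamini-Hochberg adjustment over all genes tested, threshold 0.05), and the interaction was fitted to all 12 libraries. Standard errors are of the log2 fold change. Every adjusted p in the text is from this edgeR test, or from the same test under the alternative named beside it. An exact permutation test of 3 against 3 libraries cannot go below 0.1. CPM were scaled by TMM over all libraries, and RPKM used the union of exons. Alternatives were DESeq2 1.42.0, other scalings and filters, stricter thresholds, 1 fit of all libraries, a replicate block, each library left out, subtraction of the median of the 40 nearest tested genes and, chosen after seeing the data, GC-content offsets. On simulated data the adherent fit recovered 177 of 197 changed genes with 9 false calls among 13596 genes. The interaction fit recovered 168 of 199 with 5 false calls. The simulated counts had few changed genes and no uneven GC yield or regional shifts, unlike these libraries. They check the procedure and do not give the rate of false calls in these data.

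All 36 members are named, and of each further list the 2 called genes with the largest change per knockdown comparison where the higher group averaged 5 CPM or more. Overlapping genes are named where a member's value turns on them. The level of the gene that the hairpin targets is not reported here. The members and lists were chosen with earlier results of these data known. Replicates differed beyond sampling noise, and counting floors cover counting error only. Figures were drawn with matplotlib 3.10.9.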

Additional observations from a re-analysis of the deposited data

Results flagged for a closer look

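The difference between shSigma and shCtrl cells itself differed between tumor spheres and adherent cells for 7 members, by the interaction term of edgeR's quasi-likelihood test. These are 20% of the 35 members tested, where 28.4% of all 14175 genes tested were called. The value is the log2 fold change in spheres minus that in adherent cells in 1 fit of all 12 libraries. It was 0.88 for OPTN (adjusted p = 7.16e-05), where spheres had 1.16 and adherent cells 0.21. It was -0.56 for CTSB (adjusted p = 3.28e-04), from 0.08 and 0.58, and 0.51 for LAMP1 (adjusted p = 0.013), from 0.11 and -0.46. ATG4B stood at -0.62 (adjusted p = 0.028) and GABARAPL2 at -0.41 (adjusted p = 0.0096). ATG7 stood at 0.37 (adjusted p = 0.021) and LAMP2 at 0.28 (adjusted p = 0.047). All 7 were also called with GC-content offsets, where the values lay between -0.51 for ATG4B and 0.87 for OPTN. With these offsets 15 of the 35 members and 41.8% of all genes were called. The calls of ATG4B, ATG7, GABARAPL2 and LAMP2 without offsets were each lost without at least 1 library.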

How the results depend on the processing

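At an adjusted p under 0.01 the members called were 10 in adherent cells, 12 between cultures in shCtrl cells and 3 for the interaction, and with a log2 fold change over 1 they were 1, 2, 4, 3 and 0 over the 5 comparisons. Over all genes the calls at an adjusted p under 0.01 were 4878 in adherent cells in place of 6886. Between cultures in shCtrl cells they were 5149 in place of 7404, and for the interaction 2508 in place of 4024. Leaving out each library gave 13 to 20 in adherent cells, 16 to 19 in tumor spheres, 14 to 26 between cultures in shCtrl cells (14 without sphere replicate 1 or 3), 13 to 21 in shSigma cells and 4 to 11 for the interaction (4 without adherent shSigma replicate 1 or shCtrl replicate 2, 11 without adherent shSigma replicate 3). Over all genes, adherent calls were 5160 without shSigma replicate 1 and 7101 without shSigma replicate 3. Between cultures in shCtrl cells they were 6165 and 5877 without sphere replicates 1 and 3. In shSigma cells they were 4723 without sphere replicate 1 and 7753 without adherent replicate 3. For the interaction they were 3234 and 4691 without adherent shSigma replicates 1 and 3. GC-content offsets raised the interaction calls to 15 (42.9% of members, and 41.8% of all genes in place of 28.4%), and moved the adherent split from 10 higher and 9 lower to 18 and 7 (64.4% of all genes called, 32.5% higher), as upper-quartile factors moved it to 12 and 7. A single fit of all 12 libraries split the adherent calls 17 to 9. Of all genes called in adherent cells, 50.7% were higher with upper-quartile factors and 52.3% in the single fit, in place of 44.6%. Subtraction of the median of the 40 nearest genes left 15 members called higher and 2 lower in spheres, in place of 11 and 6. In adherent cells it left 10 higher and 5 lower. Of all genes called in that fit, 48.3% were higher in spheres and 46.8% in adherent cells. DESeq2 called 16, 16, 21, 18 and 7 members and 5925, 7801, 7041, 5455 and 3690 of all genes.

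Directions turned after subtraction of the 40 nearest genes for RB1CC1 (0.35), ATG14 (0.051) and ATG7 (0.012) in adherent cells, ATG14 (0.20), ATG2B (0.039) and ATG7 (0.31) in spheres, ATG9A (-0.33) and MAP1LC3B (-0.12) between cultures in shCtrl cells, and MAP1LC3B (-0.23) in shSigma cells. With GC-content offsets they turned for RB1CC1 in adherent cells (0.14), ATG9A (-0.44) and TFE3 (-0.15) between cultures in shCtrl cells and ATG4B in shSigma cells (-0.32). The cause was not tested.

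With a replicate block the members called were 9, 16, 18, 18 and 5. The calls over all genes were then 4874, 8166, 6566, 6599 and 3428, in place of 6886, 8414, 7404, 6414 and 4024. Deviations of samples with the same replicate number had correlations from -0.85 to 0.43. Adherent shSigma replicate 3 and shCtrl replicate 1, both with a low yield of GC-rich genes, had a correlation of 0.82. With such differences among 3 libraries per group, the correlations cannot decide whether the numbers pair the samples. Uneven yield of GC-rich genes in adherent libraries and unknown use of strand limit these values.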

Other observations

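Beyond the members, further genes of lysosomes and mTORC1 were higher in tumor spheres by more than 1 on the log2 scale for both hairpins, at an adjusted p under 0.05 (edgeR's quasi-likelihood test). The 6 below were named after their values were seen, among the higher genes only. Of all genes, 15.8% in shCtrl and 9.32% in shSigma cells were called with a difference over 1 in either direction. The lists also held lower genes, and the lowest hydrolase stood at -2.05 in shSigma cells. NPC2, which carries cholesterol out of the lysosome, had 2.47 in shCtrl and 1.01 in shSigma cells (2.61 and 1.12 with GC-content offsets). CTSS, a cysteine cathepsin, had 2.41 and 1.86 (2.58 and 1.98 with offsets). GAA, which degrades glycogen, had 1.93 and 1.42 (1.19 and 0.79 with offsets). CTSA, a protective protease, had 1.25 and 1.46 (1.13 and 1.42 with offsets). PSAP, the precursor of saposins that assist sphingolipid hydrolysis, had 1.02 and 1.11 (0.87 and 1.04 with offsets). DEPTOR, an inhibitor of mTOR, had 2.59 and 1.60 (2.71 and 1.70 with offsets).

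CACGTG was found in 22.7% of the promoters of V-ATPase subunits, 21.6% of those of hydrolases and likewise of membrane and transport proteins, 29.2% of those of the mTORC1 list, 6.45% of those of other autophagy genes and 9.52% of those of other receptors, against 7.26% of all promoters.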
